A study of Homo sapiens with 24 samples.

Results

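Glycosphingolipids are membrane lipids that carry a sugar chain on ceramide, and 9 genes of their synthesis and turnover are described here out of the 37416 genes in the files: UGCG, UGT8, GALC, B4GALT5, B4GALT6, A4GALT, ST3GAL5, ST8SIA1 and B4GALNT1. UGT8 and B4GALT6 were chosen from their change after ADAR1 knockdown in these same libraries, so their knockdown values are given as a description with no test. The other 7 genes stand for the neighbouring steps of the pathway and were tested. All 9 passed the filter on low counts, which left 21352 genes.

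The libraries come from BT549, HCC1806, MDAMB231 and MDAMB468, 4 established human lines of breast cancer that the series calls triple-negative. Every group carried a lentiviral short hairpin RNA, either against ADAR1 (shADAR1) or non-targeting (shNT), so the control cells were infected and selected too. Infection lasted 24 h and puromycin selection at 2 µg/ml lasted 72 h. Each of the 8 groups of line and hairpin had 3 biological replicates, 24 libraries in all, made from 1 µg of total RNA after removal of ribosomal RNA. The labels give neither the hairpin sequences nor the number of hairpins against ADAR1, so an effect of the hairpin and an effect of lower ADAR1 cannot be told apart. In bulk RNA, fewer cells that express a gene and less RNA per cell cannot be told apart either.

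Ceramide receives its first sugar from either of a pair of enzymes: UGCG adds glucose in the Golgi, and UGT8 adds galactose in the endoplasmic reticulum, which is how the main glycolipids of myelin begin. Glucosylceramide is extended to lactosylceramide by B4GALT5 or B4GALT6, and from there A4GALT leads to globosides, while ST3GAL5, ST8SIA1 and B4GALNT1 build gangliosides. Gangliosides of the GD2 and GD3 type have been studied as surface markers in breast cancer.

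Total counts ran from 10370645 to 97218217 per library. Levels are read counts scaled to the library total (CPM) after TMM scaling, each group as mean ± SD of 3 libraries, and a level is divided by the gene's listed length in kilobases wherever genes are compared with each other. ADAR, which encodes ADAR1, was at 21.9% of control in MDAMB231, 26.1% in BT549, 33.1% in HCC1806 and 37.1% in MDAMB468. In the shNT libraries the receptor genes PGR and ESR1 were below 1 CPM in BT549 and MDAMB231. ESR1 was at 19.1 CPM in HCC1806 and 6.85 CPM in MDAMB468, which is a measurable level for lines called triple-negative. The receptor gene ERBB2 was higher in all lines, at 100.1 CPM in HCC1806, 95.45 in BT549, 89.0 in MDAMB231 and 75.95 in MDAMB468. EPCAM, an epithelial marker, was at 300 and 253 CPM in HCC1806 and MDAMB468 and at 0 and 8.95 CPM in BT549 and MDAMB231, where the mesenchymal marker VIM was at 2309 and 4305 CPM. The leukocyte marker PTPRC was at most 0.594 CPM in any group mean. The endothelial marker PECAM1 was at 4.51 CPM in MDAMB231 shNT and 4.12 CPM in MDAMB231 shADAR1, and at most 0.403 CPM in the other group means.

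Under the control hairpin the lines differed widely in these genes, with B4GALT5 as the exception. A joint edgeR quasi-likelihood test of the 4 shNT means passed for 8 of the 9 genes, against 85.9% of all genes tested, so that a line difference was the usual case in these data. In single pairs of lines 56.5% (BT549 and MDAMB231), 59% (HCC1806 and MDAMB231), 61% (BT549 and MDAMB468), 61.8% (MDAMB231 and MDAMB468), 62.9% (HCC1806 and MDAMB468) and 63.5% (BT549 and HCC1806) of all genes differed. Per kilobase, B4GALT5 had the highest level of the 9 in every line (29.5 CPM per kilobase in MDAMB468, 28.8 in HCC1806, 28.7 in MDAMB231 and 26.8 in BT549), and UGCG came next in each (10.1, 13.3, 21.0 and 18.9 CPM per kilobase in the same order). What followed UGCG differed by line: A4GALT in BT549 (18.3 CPM per kilobase), B4GALNT1 in HCC1806 (9.09), B4GALT6 in MDAMB231 (5.27) and UGT8 in MDAMB468 (2.33).

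**Figure D1:**
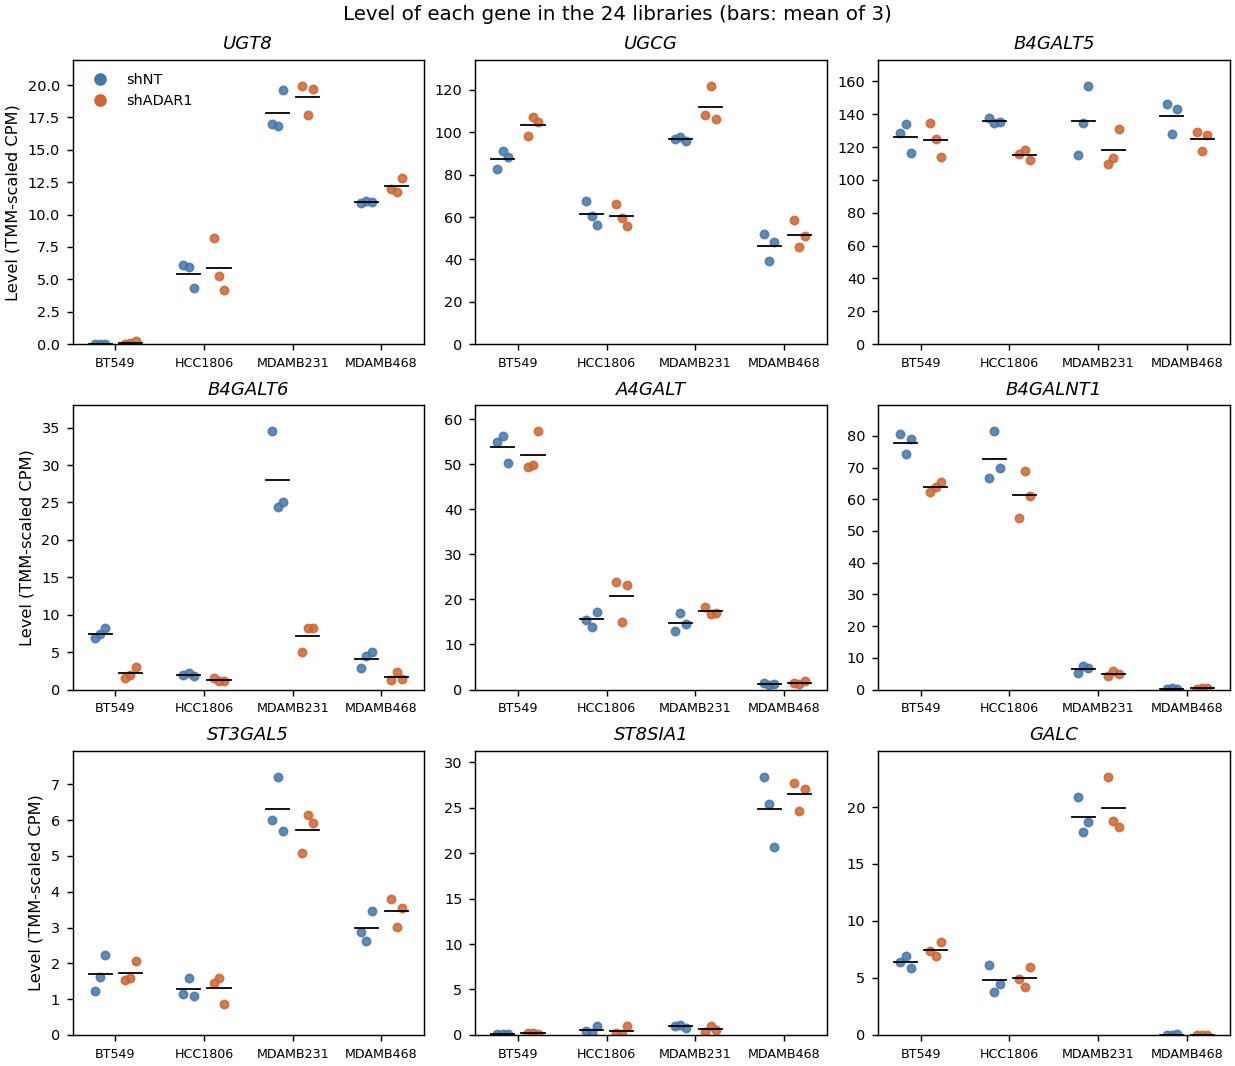
TMM-scaled CPM (y axis, from 0, a separate scale per gene) of the 9 genes in each of the 24 libraries, by line, with shNT in blue and shADAR1 in orange; horizontal bars are means of 3 libraries. B4GALT6 is lower in every shADAR1 library than in every shNT library of the same line, UGT8 is near 0 in BT549, GALC is near 0 in MDAMB468, and ST8SIA1 is high only in MDAMB468 among the 4 lines.

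After knockdown, 0 of the 7 tested genes passed an adjusted p of 0.05 by edgeR's quasi-likelihood test in any line or in the mean of the 4 line effects. The share of all genes that passed was 2.01% in MDAMB231, 0.473% in BT549, 0.0468% in HCC1806, 0.0375% in MDAMB468 and 2.96% for the mean. The arms of a line did not overlap for 4 of the 7 genes in BT549 (14.7% of all genes), 1 in MDAMB231 (14.2%), 0 in MDAMB468 (11%) and 1 in HCC1806 (7.58%). At an unadjusted p under 0.05 there were 1 gene of 7 in BT549 (UGCG), 2 in HCC1806 (A4GALT and B4GALT5), 0 in MDAMB231, 0 in MDAMB468 and 3 for the mean (A4GALT, B4GALT5 and UGCG). By that rule the share of all genes was 11.7% in MDAMB231, 6.42% in BT549, 4.35% in HCC1806, 3.76% in MDAMB468 and 12.8% for the mean. DESeq2 called 0 of 7 in each line and 1 for the mean, B4GALT5. Its shares are of the genes to which it gave an adjusted p, fewer than the 21352 of edgeR. They were 6.41% of 12658 in MDAMB231, 2.36% of 12658 in BT549 and 0.293% of 14311 in MDAMB468. In HCC1806 the DESeq2 share was 0.213% of 19693, and for the mean 7.36% of 14311. No difference between lines in the knockdown effect was called either, by edgeR or DESeq2 (0 of 7). The shares there were 0.0234% of all genes by edgeR and 0.873% of 14311 genes by DESeq2. For these differences 0 of the 7 had an unadjusted p under 0.05 in edgeR (4.44% of all genes).

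With the replicate number as a block within each line, which compares same-numbered libraries, the called genes were UGCG and B4GALNT1 in BT549, B4GALT5 in HCC1806, and UGCG, B4GALT5 and B4GALNT1 in MDAMB231, with 0 in MDAMB468. Of all genes, the block called 11.4% in MDAMB231, 5.14% in BT549, 2.1% in HCC1806 and 1.66% in MDAMB468. It called 2 of the 7 for the mean, UGCG and B4GALT5 (13.2% of all genes), and 0 for differences between lines (4.69%).

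UGCG encodes the glucosylceramide synthase, the entry to most of the pathway, and is listed as ENSG00000148154 on chromosome 9, 111896766 to 111935369, plus strand. In BT549 the shNT libraries had 82.9, 91.2 and 88.2 CPM and the shADAR1 libraries 98.3, 107 and 105 CPM. In MDAMB231 the values were 96.7, 97.6 and 96.0 CPM in shNT and 108, 122 and 106 CPM in shADAR1. All shADAR1 libraries lay above all shNT libraries in these 2 lines. The log2 fold changes were 0.24 (SE 0.104) in BT549 and 0.21 (SE 0.105) in MDAMB231, with edgeR adjusted p of 0.654 and 0.446. With the replicate block, which lowered the SE to 0.0528 and 0.0541, UGCG rose in both, with edgeR adjusted p of 0.00672 and 0.0122.

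In HCC1806, UGCG was at 61.4 ± 5.84 CPM in shNT and 60.5 ± 5.24 CPM in shADAR1, and the same-numbered pairs differed by -0.03, -0.02 and -0.01 on the log2 scale. In MDAMB468 it was at 46.6 ± 6.43 and 51.7 ± 6.40 CPM, with overlapping arms, although the shADAR1 library was the higher in all 3 pairs. Across lines 9 of 12 pairs were higher and the 3 lower ones were all in HCC1806. The mean of the 4 line effects was 0.15 (SE 0.0523) with an edgeR adjusted p of 0.172, and 0.000597 with the block, in which MDAMB468 also enters although its numbers were not read as pairs. Without the block the joint test of line differences gave an edgeR adjusted p of 1, and with it 0.13, so the spread from HCC1806 to BT549 was not shown to be a difference between lines. Under shNT, UGCG was highest in MDAMB231 and BT549, which did not differ (edgeR adjusted p 0.245), then HCC1806 and MDAMB468, which differed (log2 difference 0.40, edgeR adjusted p 0.00215).

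UGT8 encodes the galactosylceramide synthase and is listed as ENSG00000174607 on chromosome 4, 114598455 to 114678224, plus strand. The 3 BT549 shNT libraries held 0 counts each, and the shADAR1 libraries held 0, 6 and 13, so 5 of the 6 BT549 libraries were under 10 counts. Pooled over the group and against a floor of 3 counts put in for shNT, UGT8 was 4.98-fold higher in shADAR1. This ratio takes the 19 shADAR1 counts as exact, leaves out the spread between replicates and rests on 2 libraries. Its large mean effect over the 4 lines, a fitted log2 fold change of 1.39, includes this BT549 value, which depends on the prior count used in the fit.

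Where UGT8 was expressed, the arms were close. In MDAMB231 the shNT libraries had 17.0, 16.9 and 19.7 CPM and the shADAR1 libraries 19.9, 17.7 and 19.7 CPM. In HCC1806 the values were 6.11, 5.93 and 4.31 CPM in shNT and 8.19, 5.25 and 4.19 CPM in shADAR1. The ranges overlapped in both lines, and the highest HCC1806 value was a single shADAR1 library. In MDAMB468 the shNT libraries had 10.87, 11.01 and 10.95 CPM and the shADAR1 libraries 11.96, 11.78 and 12.83 CPM, the only line where the arms did not overlap. The log2 fold changes in these 3 lines were 0.11 (SE 0.277) in HCC1806, 0.10 (SE 0.269) in MDAMB231 and 0.16 (SE 0.269) in MDAMB468. Between lines under shNT, UGT8 was 992-fold higher in MDAMB231, 600-fold in MDAMB468 and 289-fold in HCC1806 than the floor in BT549. Each neighbouring pair in that order differed (largest edgeR adjusted p 0.029, MDAMB231 against MDAMB468).

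GALC encodes the lysosomal enzyme that removes galactose from galactosylceramide and whose loss causes Krabbe disease; it is listed as ENSG00000054983 on chromosome 14, 87837820 to 87993665, minus strand. Under shNT it was at 19.1 ± 1.58 CPM in MDAMB231, 6.41 ± 0.505 in BT549 and 4.79 ± 1.24 in HCC1806, the last 2 not differing (edgeR adjusted p 0.101). In MDAMB468 the 3 shNT libraries held 0, 0 and 4 counts and the shADAR1 libraries 0, 0 and 2. The pooled ratio of MDAMB231 to MDAMB468 in shNT was 607, with a 95% counting interval of 237 to 2230. MDAMB468, with almost no GALC counts, had UGT8 at 10.9 ± 0.0681 CPM in shNT, and BT549, with 0 UGT8 counts in shNT, had GALC.

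The knockdown arms of GALC overlapped in HCC1806 and MDAMB231, with log2 fold changes of 0.09 (SE 0.23) and 0.06 (SE 0.223). In BT549 the shNT libraries had 6.41, 6.92 and 5.91 CPM and the shADAR1 libraries 7.39, 6.95 and 8.13 CPM. The arms were separate there only by the gap between 6.92 and 6.95 CPM, and the log2 fold change of 0.22 (SE 0.224) had an edgeR adjusted p of 1. Exons of GALC overlap another listed gene on the opposite strand over 392 bases. Strand use in the counting is not given, so how reads there were counted is not known.

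B4GALT5 and B4GALT6 encode the lactosylceramide synthases, enzymes that add galactose to glucosylceramide. B4GALT5 is listed as ENSG00000158470 on chromosome 20, 49632945 to 49713878, and B4GALT6 as ENSG00000118276 on chromosome 18, 31622247 to 31685836, both on the minus strand. In every line each of the 3 shADAR1 libraries had less B4GALT6 than any shNT library, and 12 of 12 same-numbered pairs were lower. It was chosen for this fall, so the following values are a description.

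In BT549, B4GALT6 had 6.83, 7.37 and 8.17 CPM in shNT and 1.561, 1.964 and 3.011 CPM in shADAR1. In MDAMB231, the line with the most B4GALT6, it had 34.5, 24.3 and 25.0 CPM in shNT and 5.03, 8.19 and 8.25 CPM in shADAR1. Replicate 1 of MDAMB231 held both the highest shNT and the lowest shADAR1 value, and its shNT library was the shallowest of the 24. The fitted shADAR1 level of B4GALT6 was 25.9% of control in MDAMB231 (log2 fold change -1.95, SE 0.263) and 29.25% in BT549 (-1.77, SE 0.266).

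B4GALT6 in MDAMB468 had 2.88, 4.52 and 4.99 CPM in shNT and 1.21, 2.32 and 1.47 CPM in shADAR1, so the highest shADAR1 library came near the lowest shNT library. In HCC1806, where the gene was lowest, it had 1.94, 2.18 and 1.80 CPM in shNT and 1.541, 1.116 and 1.12 CPM in shADAR1. The difference was least in that line. The fitted shADAR1 level of B4GALT6 was 40.7% of control in MDAMB468 (log2 fold change -1.30, SE 0.275) and 63.4% in HCC1806 (-0.66, SE 0.286). MDAMB231 and BT549, which kept the least B4GALT6, also kept the least ADAR, while MDAMB468 kept more ADAR and less B4GALT6 than HCC1806; no correlation was computed over 4 lines. Under shNT all 6 pairs of lines differed in B4GALT6, the closest being BT549 and MDAMB468 (log2 difference 0.84, edgeR adjusted p 0.00773).

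B4GALT5, which supplied most of the combined transcript, changed much less. The HCC1806 shNT libraries had 138, 135 and 135 CPM and the shADAR1 libraries 116, 118 and 112 CPM. In MDAMB231 the shNT libraries had 115, 135 and 157 CPM and the shADAR1 libraries 110, 113 and 131 CPM. The arms were separate in HCC1806 and overlapped in MDAMB231, where same-numbered libraries ran in parallel. The log2 fold changes of B4GALT5 were -0.23 (SE 0.0984) in HCC1806 and -0.20 (SE 0.0987) in MDAMB231, with edgeR adjusted p of 1 and 0.438. The MDAMB231 value was -0.0808 without shNT replicate 3 and -0.31 without shNT replicate 1. With the replicate block B4GALT5 fell in both, with edgeR adjusted p of 0.0192 and 0.0175.

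B4GALT5 in BT549 was at 126 ± 9.21 CPM in shNT and 124 ± 10.4 CPM in shADAR1, and in MDAMB468 at 139 ± 9.48 and 124.7 ± 6.05 CPM, with overlapping arms in both lines. Of the 12 pairs, 11 were lower. The mean of the 4 line effects was -0.15 (SE 0.0492) with an edgeR adjusted p of 0.108. That mean passed with the block (edgeR adjusted p 0.000298), in DESeq2 (adjusted p 0.0179) and without MDAMB231 shNT replicate 1 (edgeR adjusted p 0.0325). It also passed with only genes of at least 10 counts in every library (edgeR adjusted p 0.0325, where 7.11% of 11794 genes passed). Across lines under shNT, B4GALT5 did not differ in any of the 6 pairs, and the joint test gave an edgeR adjusted p of 0.556, where 85.9% of all genes passed.

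Added together per kilobase, the pair of synthases in MDAMB231 had 34.0 ± 3.66 CPM per kilobase in shNT and 26.4 ± 2.65 in shADAR1. In BT549 the sums were 28.2 ± 1.86 and 26.8 ± 2.06 CPM per kilobase. B4GALT6 made up 15.8% ± 4.64 (SD, n = 3) of that sum in MDAMB231 shNT libraries and 5.09% ± 1.08 in shADAR1. Its share was 5.02% ± 0.755 in BT549 shNT, 2.59% ± 0.751 in MDAMB468 shNT and 1.28% ± 0.131 in HCC1806 shNT, and between 0.961% and 1.57% in the shADAR1 groups of those 3 lines.

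**Figure D2:**
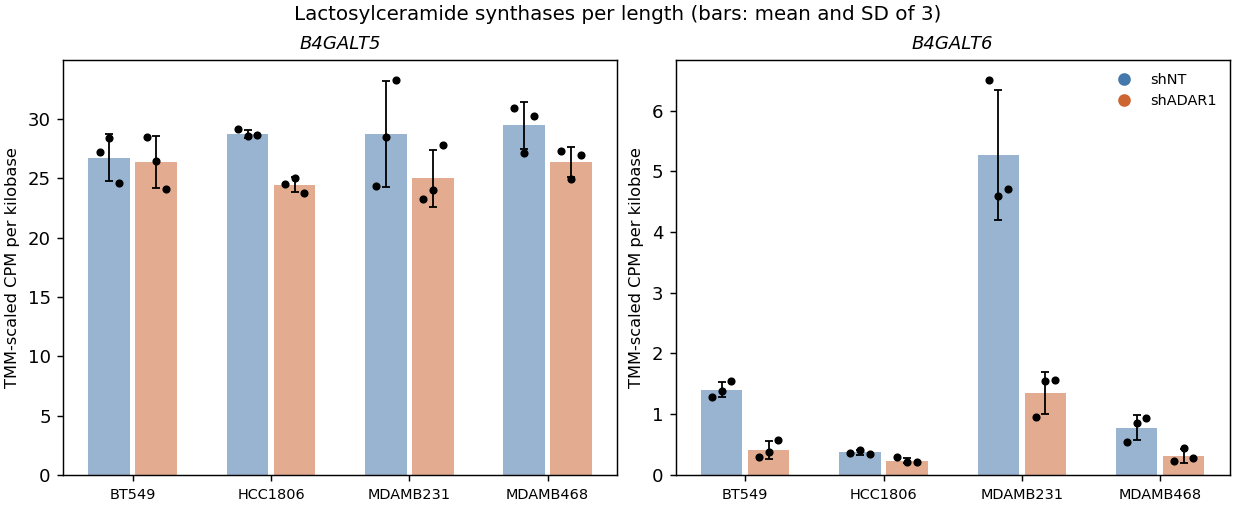
TMM-scaled CPM per kilobase of B4GALT5 (left) and B4GALT6 (right) by line, both axes from 0 and on different scales; bars are means, whiskers SD and points the 3 libraries of shNT (blue) and shADAR1 (orange). B4GALT5 lies between 24.5 and 29.5 in all 8 group means, while B4GALT6 has 5.27 and then 1.35 in MDAMB231, and 1.41 and then 0.411 in BT549.

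The 3′ UTR of B4GALT6 holds the heptamer ATCTTCA 3 times, and the ADAR transcript holds it once. The motif was picked with earlier results of these data known and is printed because the 3 copies set B4GALT6 apart from its paralog B4GALT5, which holds 1. The windows below show 10 bases on each side, 5′ to 3′ on the transcript strand, with the heptamer in capitals, from GENCODE 29 on GRCh38. They lie at chr18:31624644-31624670, chr18:31624142-31624168 and chr18:31623210-31623236 for B4GALT6, chr20:49633381-49633407 for B4GALT5 and chr1:154582414-154582440 for ADAR, all on the minus strand.
B4GALT6 copy 1: aaaaaaaagtATCTTCAtttaaaaaga
B4GALT6 copy 2: ttgtccagttATCTTCAtatgactgtt
B4GALT6 copy 3: gtgcccgtttATCTTCAttgtattaat
B4GALT5: gtagctgaaaATCTTCAaggctactga
ADAR: gcccactgttATCTTCActttctttgt

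The run of identical bases around the heptamer between each B4GALT6 window and the ADAR window was 8, 10 and 9 bases long, and 7 for B4GALT5, the heptamer alone. Among 2398 genes whose 3′ UTR is of like length to that of B4GALT6 (2445 bases), 19.6% hold at least 1 copy and 0.334% hold 3 or more. Because the motif was picked with earlier results known, these shares are a description and not a test. On the opposite strand, B4GALT6 holds 0 copies. B4GALNT1 and ST8SIA1 hold 1 copy each, UGCG, UGT8, A4GALT and GALC hold 0, and ST3GAL5 holds 3 in the GENCODE 29 transcript, all outside the exons that the files list for it. The runs shared with ADAR were 10, 8 and 8 bases long in ST3GAL5, and 7 in B4GALNT1 and in ST8SIA1. Runs as long as those of B4GALT6 were thus not particular to it, and their share over all genes was not computed. Another heptamer, GTGGGCC, which does not overlap the first, was found 0 times in the 3′ UTR of any of the 9 genes.

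Over 16217 genes tested with a known 3′ UTR, 14.3% hold ATCTTCA at least once. In MDAMB231 the median log2 fold change was 0.01 over genes with 0 copies, -0.08 with 1, -0.13 with 2 and -0.12 over the 105 genes with 3 or more. In BT549 the same medians were 0.0181, -0.00471, -0.0112 and -0.00213. From 0 to 3 or more copies they went from 0.00656 to 0.00268 in HCC1806 and from 0.0131 to 0.0144 in MDAMB468. Lower medians also went with copies of GTGGGCC, from 0.00546 with 0 copies to -0.0477 with 3 or more in MDAMB231 and from 0.0182 to -0.0813 in BT549. The medians were not matched for the length of the 3′ UTR. A match of letters is a description, and its part in the change of B4GALT6 was not tested.

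A4GALT encodes the Gb3 synthase, which begins the globo series, and is listed as ENSG00000128274 on chromosome 22, 42692121 to 42721298, minus strand. Under shNT it was at 53.8 ± 3.08 CPM in BT549, followed by HCC1806 (15.6 ± 1.69), MDAMB231 (14.9 ± 1.94) and MDAMB468 (1.29 ± 0.259). The middle pair did not differ (edgeR adjusted p 0.80), and BT549 was 5.41 log2 units above MDAMB468 (SE 0.205, edgeR adjusted p 2.09e-16). After knockdown the arms of A4GALT overlapped in all 4 lines. In HCC1806 the shNT libraries had 15.4, 13.9 and 17.3 CPM and the shADAR1 libraries 23.8, 14.99 and 23.3 CPM, of which replicate 2 stayed within the shNT range. That log2 fold change of 0.41 (SE 0.162) had an edgeR adjusted p of 0.967, and 0.0643 with the block.

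ST3GAL5 encodes the GM3 synthase, which adds the sialic acid that opens the ganglioside branch, and is listed as ENSG00000115525 on chromosome 2, 85839144 to 85889014, minus strand. It was among the lower genes, at 6.30 ± 0.80 CPM in MDAMB231, 2.99 ± 0.419 in MDAMB468, 1.69 ± 0.509 in BT549 and 1.28 ± 0.284 in HCC1806 under shNT, with no difference between the last 2 (edgeR adjusted p 0.204). The arms overlapped in every line and the log2 fold changes ran from -0.14 (SE 0.247) in MDAMB231 to 0.20 (SE 0.25) in MDAMB468. The normal-approximation 95% interval of the mean effect was -0.23 to 0.27, so changes within it are not excluded by these data.

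ST8SIA1 encodes the GD3 synthase, which adds a further sialic acid to GM3, and is listed as ENSG00000111728 on chromosome 12, 22063773 to 22437041, minus strand. In MDAMB468 the shNT libraries had 28.4, 25.4 and 20.7 CPM and the shADAR1 libraries 27.8, 24.6 and 27.0 CPM, which overlapped (log2 fold change 0.09, SE 0.379). Under shNT the other lines were at 0.93 ± 0.175 CPM in MDAMB231, 0.552 ± 0.371 in HCC1806 and 0.0752 ± 0.0161 in BT549. MDAMB231 and HCC1806 did not differ (edgeR adjusted p 0.29), and MDAMB231 was below MDAMB468 (log2 difference -4.76, SE 0.484, edgeR adjusted p 1.05e-08). Exons of ST8SIA1 overlap RNU1-149P on the same strand over 161 bases.

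Counts of ST8SIA1 were small outside MDAMB468, and 6 libraries were under 10 counts. The BT549 shNT libraries held 4 counts each and the shADAR1 libraries 10, 16 and 8. These arms did not overlap, and the pooled ratio was 2.23 with a 95% counting interval of 1.13 to 4.73, which leaves out the spread between replicates. The edgeR log2 fold change of 1.12 (SE 0.809) had an adjusted p of 0.995. In MDAMB231 the libraries held 11, 47 and 33 counts of ST8SIA1 in shNT and 6, 49 and 25 in shADAR1, all 3 pairs were lower in CPM, and the log2 fold change of -0.48 (SE 0.526) had an edgeR adjusted p of 0.839. In HCC1806 replicate 3 held 50 counts in shNT and 88 in shADAR1, against 4 to 12 in the other libraries of that line, so its log2 fold change of -0.20 (SE 0.52) went from -1.78 to 0.64 when single libraries were left out.

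B4GALNT1 encodes the GM2 and GD2 synthase and is listed as ENSG00000135454 on chromosome 12, 57623410 to 57633355, minus strand. Its BT549 shNT libraries had 80.4, 74.2 and 78.9 CPM and the shADAR1 libraries 62.2, 63.8 and 65.5 CPM. In HCC1806 the values were 66.8, 81.4 and 69.9 CPM in shNT and 54.2, 69.0 and 61.0 CPM in shADAR1. The arms were separate in BT549 and overlapped in HCC1806, where each pair was lower by 0.20 to 0.30 on the log2 scale. In MDAMB231 the shNT libraries had 5.17, 7.30 and 6.87 CPM and the shADAR1 libraries 4.36, 5.84 and 4.90 CPM.

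The log2 fold changes of B4GALNT1 were -0.38 (SE 0.189) in MDAMB231, -0.29 (SE 0.166) in BT549 and -0.24 (SE 0.166) in HCC1806, with edgeR adjusted p of 0.454, 0.92 and 1. With the replicate block B4GALNT1 fell in BT549 and MDAMB231 (edgeR adjusted p 0.0308 and 0.0351), and HCC1806 had 0.118. In MDAMB468 the gene was near 0, with 6, 18 and 14 counts in shNT and 2, 21 and 39 in shADAR1. The log2 fold change of B4GALNT1 there, 0.44 (SE 0.355), became -0.13 without shADAR1 replicate 3. Of the 12 pairs, 11 were lower.

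Under shNT, B4GALNT1 was at 77.9 ± 3.25 CPM in BT549 and 72.7 ± 7.72 in HCC1806, which did not differ (edgeR adjusted p 0.63), then at 6.45 ± 1.13 in MDAMB231 and 0.283 ± 0.079 in MDAMB468. Its order over the lines was the reverse of that of ST8SIA1. Over the 24 libraries, which share 4 lines, Pearson's r of their log2 CPM was -0.92. No line had both genes above 1 CPM in a group mean. Exons of B4GALNT1 overlap SLC26A10P on the opposite strand over 2136 bases, and how reads there were counted is not known. SLC26A10P was at 0.904 CPM in BT549 and at 0.429 CPM in HCC1806 under shNT.

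**Figure D3:**
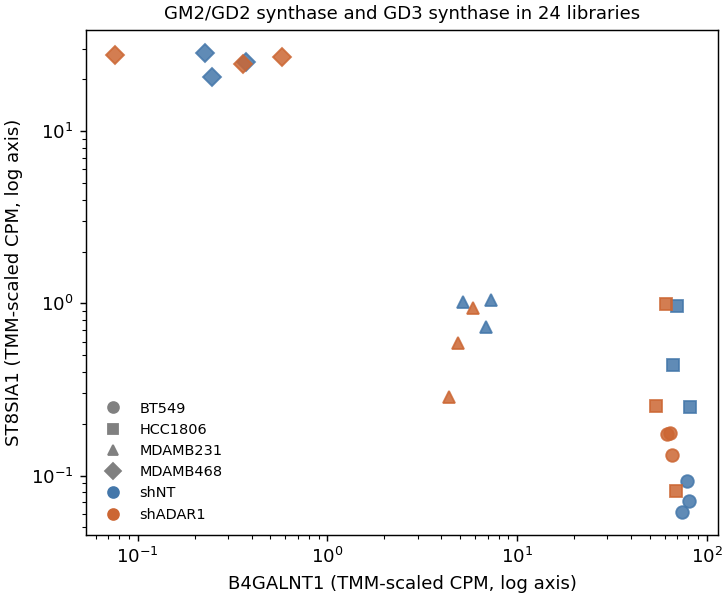
TMM-scaled CPM of B4GALNT1 (x, log axis) against ST8SIA1 (y, log axis) in the 24 libraries; the marker shape gives the line and the colour the hairpin. The 6 MDAMB468 libraries sit at the top left, BT549 and HCC1806 at the lower right and MDAMB231 between them, and shNT and shADAR1 libraries of a line lie close together along the B4GALNT1 axis except in MDAMB468, where counts were 2 to 39.

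**Figure D4:**
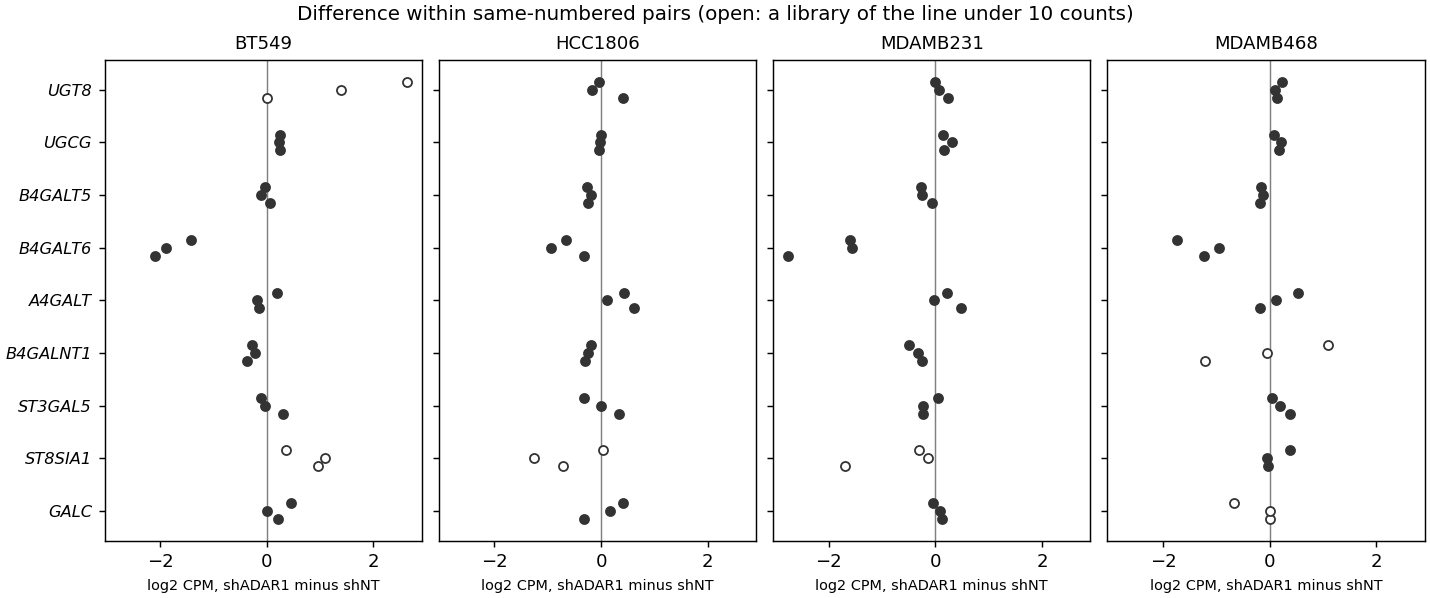
Difference in log2 CPM (prior count 2) between the shADAR1 and shNT library of the same replicate number, for each gene and line; each circle is 1 of the 3 pairs, open where a library of that line held under 10 counts, and the vertical line marks 0. B4GALT6 is left of 0 in 12 of 12 pairs, B4GALT5 and B4GALNT1 in 11 of 12, and UGCG is right of 0 in 9 of 12.

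By the count flag, UGT8 had 5 libraries under 10 counts, ST8SIA1 and GALC 6 each and B4GALNT1 2, and the other 5 genes had 0. The lowest counts that escaped the flag were 10 in a BT549 shADAR1 and 10 in an HCC1806 shNT library of ST8SIA1, and the highest flagged was 8, also of ST8SIA1. B4GALT6 never fell below 32 counts.

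The genes whose log2 CPM was most like each member over the 24 libraries mostly shared its line pattern. For B4GALT6 they were CBX1 (r 0.939) and QRICH1 (r 0.931), for UGT8 NHS and SMARCE1 (both r 0.986), and for UGCG IKBIP and ANO10 (both r 0.971). A4GALT was nearest to PAX8 (r 0.991) and PCDH9 (r 0.988), B4GALNT1 to SMYD4 (r 0.987) and RAB36 (r 0.984), and ST8SIA1 was close to EMP2 (r 0.9753). ST3GAL5 was nearest to CTBS (r 0.968) and TNS2 (r 0.957), and GALC to IRAK2 and CTNNAL1 (both r 0.99). B4GALT5, whose level hardly varied, had no close match, ISOC1 (r 0.616) being the nearest. These are among the highest values over the 11000 genes whose mean log2 CPM was 2 or more.

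Among the other genes of the pathway, 65 were listed, 64 were in the files and 63 were tested. In the mean of the 4 line effects 3 rose and 2 fell, which is 5 of 63 against 2.96% of all genes, and in MDAMB231 1 fell, while BT549, HCC1806 and MDAMB468 had 0 calls by edgeR. The median log2 fold change of the 63 in the mean effect was 0.03, against 0.02 over all genes. With the replicate block the counts were much larger: 11 rose and 8 fell in the mean effect, against 13.2% of all genes, 6 rose and 5 fell in MDAMB231 (11.4%), 5 and 4 in BT549 (5.14%), 2 and 2 in HCC1806 (2.1%), and 2 and 1 in MDAMB468 (1.66%).

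The calls named first are those without the block. Of the 18 genes of ceramide synthesis and supply, CERT1 fell, in the mean effect (log2 fold change -0.39, SE 0.051, edgeR adjusted p 3.35e-05) and in MDAMB231 (-0.54, SE 0.103, edgeR adjusted p 0.00367). With the block CERT1 fell in each of the 4 lines, by 0.26 to 0.53 on the log2 scale (largest edgeR adjusted p 0.0432, in HCC1806). CERT1 carries ceramide from the endoplasmic reticulum to the Golgi, where sphingomyelin is made. Among the 5 genes that compete for ceramide or follow galactosylceramide, CERK, the ceramide kinase, fell in the mean effect (-0.25, SE 0.0467, edgeR adjusted p 0.00229). Of the 10 genes of the globo and neolacto series, B4GALT1, a galactosyltransferase that also acts on glycoproteins, rose (0.26, SE 0.0495, edgeR adjusted p 0.00209), and so did FUT1, which makes the H antigen (0.48, SE 0.125, edgeR adjusted p 0.0333). The log2 fold change of FUT1 was 1.30 (SE 0.359) in BT549, where its shNT level was only 0.134 ± 0.0551 CPM, and between 0.08 and 0.37 in the other lines. Among 18 tested genes of lysosomal and other breakdown, SMPD1, the acid sphingomyelinase, rose (0.36, SE 0.0632, edgeR adjusted p 0.00112). Without the block, 0 of the 9 tested ganglioside genes and 0 of the 3 lipid transfer genes were called in the mean effect. With the block the ganglioside count in that effect stayed at 0, while 1 fell in BT549 and 1 in MDAMB231. All 3 transfer genes were called in the mean effect with the block, against 13.2% of all genes. GLTP (log2 fold change 0.16, SE 0.0264, edgeR adjusted p 0.000162) and CPTP (0.15, SE 0.0324, edgeR adjusted p 0.00206) rose and PLEKHA8 fell (-0.11, SE 0.0337, edgeR adjusted p 0.0295). The block also called more genes of the other lists in the mean effect. For ceramide synthesis and supply 2 rose and 4 fell, and among the 5 competing genes 2 rose and 1 fell. In the globo and neolacto series 3 rose and 1 fell, and in breakdown 2 rose and 1 fell.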

How the data were processed

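RNA from 24 libraries was sequenced by the authors, 3 for each of 8 groups. The deposited files give a read count per gene, CPM and RPKM, per the file headers. The deposited CPM values equalled each gene's share of the library's total count, and the deposited RPKM values were CPM per kilobase of the listed length; neither was tested. The submitters' processing notes name bcl2fastq, STAR, Subread featureCounts and edgeR. Genome build, annotation and strand use are not given in the sources used here. Of 34265 genes found in GENCODE 29 on GRCh38, 31354 had the same start and end, among them 7 of the 9 members. Symbols matched 33972 of 37416 genes. Coordinates are as the files list them.

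Counts were filtered with filterByExpr, TMM-scaled and fitted with edgeR 4.0.16 in R 4.3.3 (quasi-likelihood F test, 2-sided, 1 coefficient per group, all 24 libraries, Benjamini-Hochberg over 21352 genes, threshold 0.05). Tests were shADAR1 against shNT per line, the mean of the 4 line effects, their differences, and the shNT lines against each other. The labels call replicates biological without more detail, and p-values measure the spread between these samples. Counting intervals are exact binomial (Clopper-Pearson, 95%) and cover counting error only. The floor of 3 counts stands in for a group with 0 counts, and a ratio to it takes the counts of the other group as exact. The members and gene lists were chosen with earlier results of these data known. The text names the 9 members, ADAR, every listed pathway gene past the threshold, and for each member the 2 genes most correlated with it, of which 2 are not reported here. Proteins and promoters are not used here.

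Deviations from the group means, over all tested genes, correlated between same-numbered libraries at 0.204, 0.348 and 0.149 in MDAMB231, at 0.139, 0.158 and 0.25 in BT549 and at 0.242, 0.332 and 0.443 in HCC1806, and the numbers were read as pairs in those lines. MDAMB468 (0.165, 0.166 and 0.0651) was not, because of the low value of replicate 3. Its other values were above some accepted in BT549 (0.139 and 0.158) and MDAMB231 (0.149). Over the 11000 genes whose mean log2 CPM reached 2 the MDAMB468 values were 0.416, 0.36 and 0.255. In every line, MDAMB468 included, the best match of each replicate had the same number, over either set of genes. Whether pairing holds in MDAMB468 is thus not settled, and counts out of 12 pairs include that line. Alternatives were DESeq2 1.42.0, scaling by RLE or by the upper quartile, 2 other filters, the block, a fit of each line alone and leaving out each library.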

Additional observations from a re-analysis of the deposited data

How the results depend on the processing

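The members' log2 fold changes gave 1363 values under the alternatives. Of these, 1314 were counted as unchanged, 37 as changed in sign, 11 as passing the threshold only under the alternative and 1 as moved. The cause was not tested. The 1314 include values of UGT8 and B4GALT6, which were not tested and so have no side of the threshold to keep. B4GALT6 kept its direction under all alternatives in every line. The replicate block gave 3 calls in MDAMB231, 2 in BT549, 1 in HCC1806 and 2 in the mean effect, against 0 without it, and 0 in MDAMB468 and for line differences. It changed no other call of a member. The mean effect had 1 call (B4GALT5) in DESeq2 and 1 with at least 10 counts in every library, and 0 to 1 when single libraries were left out, the 1 without MDAMB231 shNT replicate 1. In that stricter filter 4 of 5 remaining members, fewer genes tested, differed between lines in shNT.

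Sign changes lay mostly at values near 0 or in genes with few counts. A4GALT in MDAMB468, with a log2 fold change of 0.22 and no library under 36 counts, also changed sign. Leaving out single libraries gave log2 fold changes in HCC1806 of -0.20 to 0.33 for UGT8, -0.0854 to 0.0601 for UGCG, -0.18 to 0.27 for ST3GAL5, -1.78 to 0.64 for ST8SIA1 and -0.0621 to 0.296 for GALC. In BT549 the ranges were -0.0788 to 0.0405 for B4GALT5 and -0.15 to 0.27 for ST3GAL5, and in MDAMB231 -0.0404 to 0.122 for GALC. In MDAMB468 they were -0.0458 to 0.392 for A4GALT, -0.13 to 0.71 for B4GALNT1, -0.0271 to 0.202 for ST8SIA1 and -3.66 to 2.61 for GALC. In the mean effect they were -0.0209 to 0.0861 for ST3GAL5, -0.26 to 0.35 for ST8SIA1 and -0.82 to 0.75 for GALC. For the ST3GAL5 log2 fold change, HCC1806 had 0.00629 as reported and -0.00849 with at least 10 counts in every library, -0.0226 with the replicate block and -0.0093 in DESeq2. UGT8 in BT549 had a fitted value of 4.05 without shADAR1 replicate 3, against 5.21. The count of all genes called in the knockdown went up with the block: BT549 had 101 and then 1098, HCC1806 10 and 448, MDAMB231 429 and 2434, MDAMB468 8 and 354, the mean effect 632 and 2820, and line differences 5 and 1002. DESeq2 called 299 genes in BT549, 42 in HCC1806, 812 in MDAMB231, 42 in MDAMB468, 1054 in the mean effect and 125 for line differences. Fitted alone, BT549 had 226 calls, MDAMB231 117, MDAMB468 21 and HCC1806 0. With at least 10 counts in every library there were 185 in BT549, 16 in MDAMB468 and 25 for line differences, and with no filter 18 in HCC1806 and 22 for line differences.

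The shallowest library held 10370645 counts. UGT8 in BT549, GALC and B4GALNT1 in MDAMB468 and ST8SIA1 outside MDAMB468 are limited by few counts. Changes in them are known no better than the ratios, intervals and SEs given.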

Other observations

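The steps around the 9 genes also differed between the lines under the control hairpin, in genes chosen after their values were seen. GAL3ST1, which adds sulfate to galactosylceramide and so acts directly after UGT8, was at 0.403 CPM or less in every line, including MDAMB231 and MDAMB468, where UGT8 was at 17.8 ± 1.58 and 10.9 ± 0.0681 CPM. ST6GALNAC5, a sialyltransferase of the late ganglioside branch, was at 55.2 ± 3.65 CPM in MDAMB468, the line with ST8SIA1, at 9.82 ± 2.05 in BT549, and at 0 in HCC1806. ST6GALNAC3, of the same family, was at 20.6 ± 3.12 CPM in BT549 and at 0.527 CPM or less in the other 3 lines.

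On the globo and neolacto side, GBGT1, the Forssman synthase homologue, and FUT1 were highest in HCC1806 (18.0 ± 1.19 and 28.6 ± 2.40 CPM) and near 0 in BT549 (0.00514 and 0.134 CPM), the line with the most A4GALT. B3GALT5 was at 25.3 ± 2.08 CPM in MDAMB231 and at most 3.11 CPM elsewhere. SPTLC3, a subunit of the serine palmitoyltransferase that starts ceramide synthesis, went from 0.224 ± 0.043 CPM in BT549 to 33.5 ± 7.36 CPM in MDAMB231. CERT1 was lower in shADAR1 than in shNT in the mean of every line, from 48.5 ± 2.07 to 36.1 ± 1.46 CPM in BT549 and from 42.1 ± 4.78 to 28.98 ± 2.63 CPM in MDAMB231.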
